A study of Mus musculus with 6 samples.

Results

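The small leucine-rich proteoglycans are secreted core proteins built of leucine-rich repeats, most of which carry chondroitin, dermatan or keratan sulfate chains. Genes of this family, Dcn, Bgn, Aspn, Fmod, Lum, Prelp, Kera, Omd, Ogn and Podn, were found by symbol in a bulk RNA-seq table of cultured fibro-adipogenic progenitors (FAPs), and these 10 members were all among 16895 listed genes. FAPs are mesenchymal stromal cells of skeletal muscle that make interstitial matrix and can form fibroblasts and adipocytes. The cells came from C57BL/6 mice of both sexes, 3 to 6 months of age, and were sorted from skeletal muscle as CD31-, CD45-, integrin α7- and SCA1+ cells before culture. Senescent FAPs had received etoposide, a topoisomerase II inhibitor that breaks DNA, at 20 μM over 48 h, and RNA was taken after 5 further days without the drug. Control FAPs were non-senescent cells isolated in the same way. What the control cultures received in place of etoposide is not given in the sources used here. There were 3 libraries in each group, and the comparison asks how etoposide-induced senescence changes the transcripts of these matrix proteins.

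In connective tissue, proteins of this family bind collagen fibrils through their concave face and set fibril spacing and diameter, and several also bind growth factors or cell surface receptors. They are grouped by sequence: decorin, biglycan and asporin are class I, fibromodulin, lumican, PRELP, keratocan and osteomodulin are class II, osteoglycin is class III and podocan is class V. In muscle, stromal cells of the interstitium such as FAPs are a main source of them.

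Senescent FAPs had higher transcript levels of Prelp, Dcn and Lum and lower levels of none of the members. Bgn dominated the family in both groups, and Prelp became a second prominent transcript in senescent FAPs. PRELP, which links basement membranes to the surrounding matrix, rose 10.7-fold (95% interval 6.82 to 16.7), Dcn rose 3.46-fold (2.00 to 5.99) and Lum rose 3.94-fold on a scale that understates changes of low genes. Bgn, by far the most abundant member, stayed between 5581 and 6116 CPM in all 6 libraries. CPM stands for read counts relative to the scaled library size, and fold changes are differences of log2(CPM + 0.5), tested with limma across 14777 genes with a Benjamini-Hochberg adjustment and a threshold of 0.05.

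Of the 10 members, 9 reached 0.5 CPM in 3 libraries and were tested, 3 were higher, 0 were lower and 6 did not pass. Of all genes tested, 46.1% passed in either direction, 21.8% as higher and 24.3% as lower, so a call was common in this comparison. With reads scaled by library totals alone, 4993 genes were higher and 1930 lower in place of 3219 and 3592, and the median difference of all genes moved from −0.03 to 0.17. Under that scaling the same 3 members passed. At the study's own threshold, which asks for p below 0.01 before adjustment and for more than 1 on the log2 scale, 6.93% of all genes were higher and 3.9% lower, and 3 members were higher. The groups did not overlap for 57.4% of all genes tested and for 3 of the 9 members tested. Lum passed the filter on low values through the senescent group, with 1 of 3 control libraries at 0.5 CPM. Because these are bulk libraries, more cells of a type and more RNA per cell cannot be told apart.

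**Figure D1:**
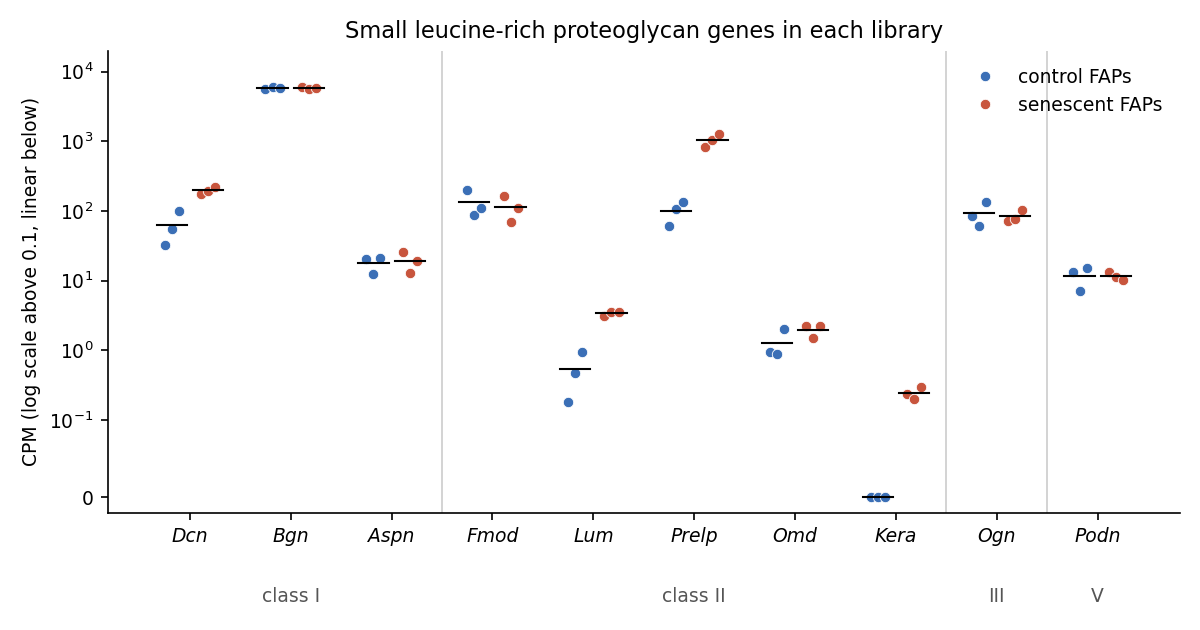
CPM of each member (vertical axis, logarithmic above 0.1 and linear below) in the 3 control and the 3 senescent libraries, grouped by class; points are libraries and bars are group means. The senescent points lie above all control points for Dcn, Lum, Prelp and Kera, and Bgn lies between 5581 and 6116 CPM in each library.

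Reads on genes ranged from 41415072 to 59915575 per library, so that 1 read was worth 0.0167 to 0.0225 CPM. Markers of FAPs were present in each group. Pdgfra, the platelet-derived growth factor receptor that defines these cells, was at 192 ± 58.4 CPM (SD, n = 3) in control and 218 ± 35.7 in senescent FAPs, and Ly6a, which encodes SCA1, was higher in senescent FAPs (372 ± 132 against 625 ± 76.0 CPM, log2 fold change 0.81, adjusted p = 0.0393). Both were named after their values were seen. The marker counts below stand beside 21.8% higher and 24.3% lower over all genes tested. Of 12 FAP markers 5 were higher and 0 lower, and their summed level went from 2189 to 2389 CPM in control libraries to 3088 to 3584 in senescent libraries. Cd34 (log2 fold change 1.60, adjusted p = 6.98e-04), Gsn (0.86) and Dpt (1.58) had the smallest p. Leukocyte markers were low and moved with the groups: 4 of the 5 listed markers were higher and 0 lower, with sums of 10.9 to 13.8 CPM in control and 26.4 to 32.5 in senescent libraries. Of the 4 higher, 1 had fewer than 3 control libraries at 0.5 CPM and passed the filter through the senescent group. Csf1r was the most abundant of them in control FAPs (6.74 ± 0.573 CPM) and Cd53, named after its values were seen, in senescent FAPs (11.4 ± 2.74 CPM). The defining genes Ptprc and Adgre1 were not analysed here. Summed markers of bone and cartilage cells fell from 208 to 269 CPM to 103 to 137, with 0 higher and 3 lower of 5 tested. Runx2 was the most abundant (98.8 ± 4.23 against 79.0 ± 9.82 CPM). Col2a1 had the largest difference among them (80.2 ± 38.5 against 11.5 ± 4.78 CPM). Bglap, below the filter, went the other way (0.0466 ± 0.0476 against 0.431 ± 0.0907 CPM). The latter 2 were named after their values were seen. Pericyte markers, of which Cspg4 was the most abundant, summed to 291 to 399 against 201 to 211 CPM, with 1 higher and 2 lower of 5 tested. Tendon markers, led by Comp, summed to 50.7 to 125 against 45.3 to 66.6 CPM, with 1 higher and 1 lower of 5 tested. The sums of muscle (35.1 to 54.0 against 35.3 to 38.2 CPM), adipocyte (8.84 to 10.7 against 9.65 to 10.7) and endothelial markers (17.95 to 38.4 against 22.2 to 29.2) overlapped between groups, with 1 higher and 1 lower in each, and were led in control FAPs by Acta1, Pparg and Tek. The higher endothelial marker too had fewer than 3 control libraries at 0.5 CPM. The part of any of these markers in the differences of Prelp, Dcn and Lum was not tested.

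Among the class I members, Bgn is given first because it is the most abundant. Biglycan carries dermatan or chondroitin sulfate chains, binds collagen and transforming growth factor beta, and can signal through Toll-like receptors when soluble. It was at 5721, 6050 and 5822 CPM in control replicates 1, 2 and 3 and at 6116, 5581 and 5808 CPM in senescent replicates 1, 2 and 3. The groups overlapped and the log2 fold change was −0.01 ± 0.17 (SE; 95% interval −0.39 to 0.38; adjusted p = 0.973), an interval that spans 0.761- to 1.30-fold. Its direction was not stable to scaling, at 0.20 with library totals (adjusted p = 0.343), and under quantile normalization it was 0.57 with an adjusted p of 0.0442. By CPM per kilobase of its longest principal transcript, Bgn ranked 9th to 12th of 15973 genes in each library.

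Decorin (Dcn) carries a dermatan or chondroitin sulfate chain, coats collagen I fibrils and binds transforming growth factor beta. Dcn was at 32.8, 55.2 and 98.9 CPM in the control libraries and at 178, 194 and 220 CPM in the senescent libraries. The lowest senescent library was above the highest control library, and the control libraries were spread over a wider ratio than the senescent libraries. The means were 62.3 ± 33.6 and 197 ± 21.2 CPM (SD, n = 3 each), and the log2 fold change was 1.79 ± 0.34 (SE, adjusted p = 0.00465). It ranked 251st in log2 fold change among the 14777 genes tested. Asporin (Aspn), a close relative whose core has an aspartate-rich stretch, was at 20.7, 12.6 and 21.1 CPM in control and 25.6, 12.7 and 18.9 CPM in senescent libraries. These overlapped, with a log2 fold change of 0.05 (95% interval −0.60 to 0.70, adjusted p = 0.894).

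Prelp was the member with the largest change. It was at 61.7, 107 and 135 CPM in the control libraries and at 826, 1052 and 1260 CPM in the senescent libraries, which stood for 2766 to 7494 reads against 41620 to 62857 reads. No senescent library was near the control range. The log2 fold change was 3.42 ± 0.28 (SE, adjusted p = 2.32e-04), the 18th largest of the 14777 genes tested. By CPM per kilobase its rank moved from 3870th, 2459th and 1915th to 247th, 155th and 127th of 15973 genes. The other class II gene on the same chromosome, Fmod, which encodes the collagen-binding fibromodulin of tendon and other fibrous tissue, was at 199, 88.1 and 112 CPM in control and 162, 70.3 and 110 CPM in senescent libraries. The groups overlapped, the log2 fold change was −0.21 (95% interval −1.05 to 0.62, adjusted p = 0.656), and it turned to 0.12 without control replicate 1 and to 0.10 without senescent replicate 2.

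The window around the start of Prelp (chr1:133921352-133921651, minus strand), of Fmod (chr1:134037004-134037303, plus strand) and of Bgn (chrX:73483351-73483650, plus strand) is printed from 250 bases before to 50 after the RefSeq start on GRCm38.p6, because these are the member that changed most, its neighbour on chromosome 1 that did not pass and the member with the highest level. Capitals mark CCAAT in Prelp and Fmod, and GGGCGG on the opposite strand, with overlapping matches, in Bgn.
Prelp: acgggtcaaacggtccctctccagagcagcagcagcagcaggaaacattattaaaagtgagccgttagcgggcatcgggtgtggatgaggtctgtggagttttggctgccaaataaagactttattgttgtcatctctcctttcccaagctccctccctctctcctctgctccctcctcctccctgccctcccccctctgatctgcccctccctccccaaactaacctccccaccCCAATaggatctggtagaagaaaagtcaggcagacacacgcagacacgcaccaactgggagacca
Fmod: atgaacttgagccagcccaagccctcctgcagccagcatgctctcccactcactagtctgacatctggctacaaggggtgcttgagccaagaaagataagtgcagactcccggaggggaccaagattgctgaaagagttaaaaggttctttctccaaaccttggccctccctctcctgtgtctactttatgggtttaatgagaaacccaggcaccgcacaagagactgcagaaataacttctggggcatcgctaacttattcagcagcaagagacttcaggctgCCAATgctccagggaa
Bgn: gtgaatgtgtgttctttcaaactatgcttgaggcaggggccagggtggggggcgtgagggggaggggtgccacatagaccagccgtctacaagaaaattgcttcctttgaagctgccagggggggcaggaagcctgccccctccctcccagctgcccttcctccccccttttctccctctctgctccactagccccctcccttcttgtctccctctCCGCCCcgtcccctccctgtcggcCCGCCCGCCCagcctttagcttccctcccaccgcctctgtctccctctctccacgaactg

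Of the 10 members, 8 had such a window in the RefSeq table used here, in 9 entries, and Dcn and Lum did not. CCAAT was present in Prelp, Fmod, Aspn and Kera and in 37.4% of 32851 promoters, and GGGCGG was present in Bgn, with 3 matches, in 1 of the Podn entries and in 35.7% of promoters. TATAAA was present in Aspn and Ogn, with 2 matches each counted over both strands, and in 13.6% of promoters. In Ogn the matches overlap in the stretch TTTATAAA, which reads the same on both strands. TGANTCA (7.81% of promoters), CACGTG (7.15%) and a short interferon-stimulated response element were searched on both strands as well, without a match in any of the 9 windows. The base composition differed, with 55.3% G and C in the Prelp window, 51.0% in Fmod and 63.7% in Bgn. These matches describe letters, not binding sites.

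Lumican (Lum), known for the keratan sulfate of the cornea, was a low transcript in these cells. It had 8, 25 and 53 reads in control libraries (0.179, 0.475 and 0.951 CPM) and 158, 210 and 156 reads in senescent libraries (3.14, 3.51 and 3.51 CPM). The groups did not overlap, and the log2 fold change was 1.98 ± 0.27 (SE, adjusted p = 0.00117). With edgeR's quasi-likelihood test on whole reads recovered from the CPM it was 2.66 (adjusted p = 0.00408). Keratocan (Kera), a protein of the corneal stroma, had 0 reads in each control library and 12, 12 and 13 reads in the senescent libraries (0.238, 0.201 and 0.293 CPM). Against a floor of 3 reads per control library, 0.0593 CPM on average, this was at least 4.11-fold higher. Kera was below the 0.5 CPM filter in each library and was not among the 14777 genes tested. When all 16895 listed genes were tested it passed with limma (log2 fold change 0.57, adjusted p = 0.0059) and with edgeR's quasi-likelihood test (6.65, adjusted p = 0.0036), as a gene that held reads in the senescent libraries alone. The size of its change thus depended on the method. Osteomodulin (Omd), a bone member that carries keratan sulfate, was at 0.937, 0.894 and 2.01 CPM in control and 2.20, 1.47 and 2.25 CPM in senescent libraries. The groups overlapped, and the log2 fold change of 0.51 (95% interval −0.10 to 1.13) did not pass (adjusted p = 0.148) but became 0.79 with an adjusted p of 0.0309 without control replicate 3.

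Osteoglycin (Ogn), the class III member also called mimecan, was at 85.4, 60.1 and 134 CPM in control and 71.4, 76.2 and 103 CPM in senescent libraries, which overlapped (log2 fold change −0.10, 95% interval −0.74 to 0.54, adjusted p = 0.786). Podocan (Podn), a class V member, was at 13.4, 6.998 and 15.01 CPM in control and 13.3, 11.2 and 10.3 CPM in senescent libraries, which overlapped as well (0.04, 95% interval −0.58 to 0.65, adjusted p = 0.924).

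**Figure D2:**
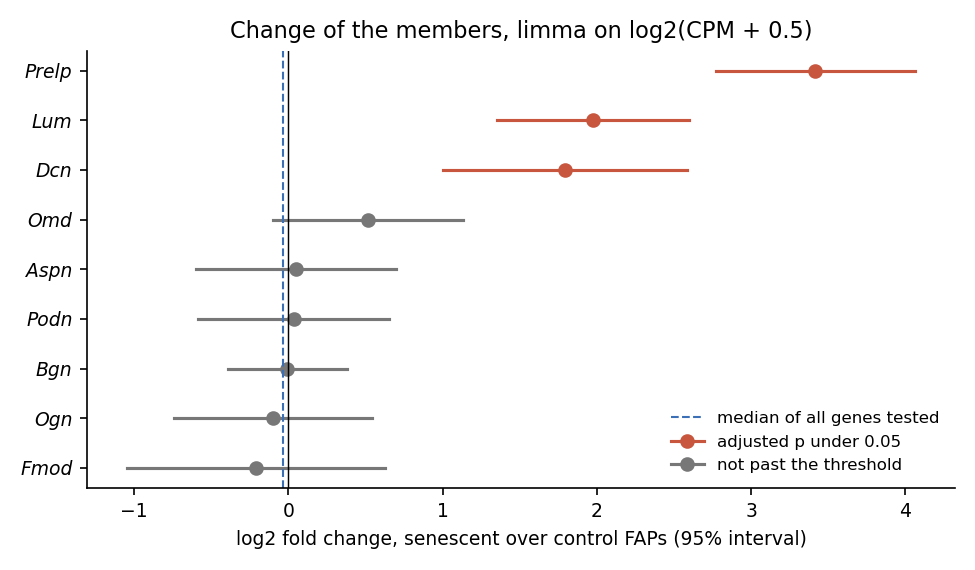
Log2 fold change of senescent over control FAPs for the 9 members tested (points) with 95% intervals (lines) from limma on log2(CPM + 0.5), ordered by size; the dashed line is the median of all genes tested (−0.03). Prelp (3.42), Lum (1.98) and Dcn (1.79) lie to the right with intervals above 0, and the intervals of the other 6 hold 0.

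The order of the members was compared on CPM per kilobase of transcript. In control FAPs Bgn (2424 ± 69.6 per kilobase) was followed by Fmod (42.6 ± 18.7), Ogn (36.4 ± 14.7), Dcn (35.4 ± 19.1) and Prelp (27.9 ± 10.2), and these 4 neighbours overlapped in their ranges. Aspn (7.79 ± 2.06), Podn (3.72 ± 1.34), Omd (0.569 ± 0.281), Lum (0.219 ± 0.159) and Kera (0) came after. In senescent FAPs Bgn (2412 ± 111) was followed by Prelp (289 ± 60.0) and Dcn (112 ± 12.0), whose ranges were apart from each other and from those below. Fmod (36.6 ± 14.8) and Ogn (32.6 ± 6.64) overlapped, and they were followed by Aspn (8.18 ± 2.75), Podn (3.66 ± 0.494), Lum (1.38 ± 0.0883), Omd (0.878 ± 0.194) and Kera (0.107 ± 0.0202). The mean level of Bgn was 86.8 times that of Prelp in control FAPs and 8.34 times in senescent FAPs, and 68.4 and 21.5 times that of Dcn.

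Members took 0.584% ± 0.0192 of all reads on genes in control libraries and 0.787% ± 0.0240 in senescent libraries (SD, n = 3 each). Per kilobase, Bgn made up 94.0% ± 1.48 of the summed level of the members in control and 83.3% ± 2.27 in senescent FAPs, Prelp made up 1.08% ± 0.377 and 9.998% ± 2.06, and Dcn 1.37% ± 0.723 and 3.87% ± 0.407. Without Bgn, the summed level went from 155 ± 38.7 to 485 ± 70.2 CPM per kilobase, and the share of Prelp in it from 18.3% ± 6.39 to 59.3% ± 5.07.

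**Figure D3:**
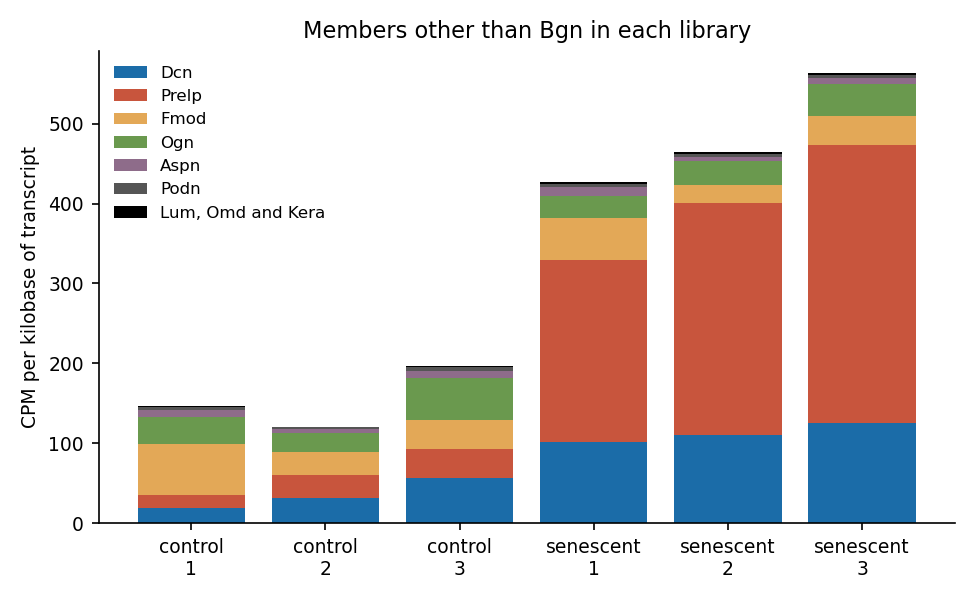
Summed level of the members other than Bgn in each library, in CPM per kilobase of transcript (vertical axis from 0), with each color a member. The senescent bars reach 427 to 563 against 121 to 197 in control libraries, and Prelp is the largest segment in each senescent library.

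Whether members changed in unequal measure within a library was tested with exact two-sided permutation tests on 12 ratios and shares, for which 3 libraries against 3 allow no p below 0.1 (0.133 after adjustment over the 12). The log2 ratio of Prelp to Dcn was 0.76 ± 0.28 in control and 2.39 ± 0.16 in senescent FAPs (difference 1.63, exact p = 0.1), without overlap. The log2 ratio of Bgn to Dcn was 6.69 ± 0.78 and 4.89 ± 0.19 (difference −1.80, exact p = 0.1), also without overlap. The ratios of Aspn, Fmod, Omd, Ogn and Podn to Dcn were lower in senescent FAPs without overlap, with differences from −2.004 for Fmod to −1.28 for Omd, each at the smallest p of 0.1 that the design allows. Each difference is the change of the member less that of Dcn (1.79). Bgn, Aspn, Fmod, Omd, Ogn and Podn did not pass by themselves, so their ratios largely restate the rise of Dcn and are not separate results. The ratio of Lum to Dcn overlapped (difference 0.19, exact p = 0.2). As a share of the summed CPM of the members, class I was 94.6% ± 1.15 in control and 82.8% ± 2.59 in senescent FAPs, and class II 3.76% ± 0.617 and 15.9% ± 2.42 (exact p = 0.1 each, adjusted 0.133), while class III and class V overlapped between groups (exact p = 0.5 each). Within class II, Prelp went from 101 ± 36.7 to 1046 ± 217 CPM, while Fmod was at 133 ± 58.4 and 114 ± 46.2 CPM. No class I member was lower, so these shares do not show a shift of whole classes.

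The members lie in 3 clusters and at 2 single places in the genome (GRCm38, GENCODE M21). Dcn (chr10:97479609-97518143), Lum (chr10:97565128-97572703) and Kera (chr10:97606879-97613692) are adjacent on chromosome 10, each on its plus strand. The groups did not overlap for Dcn and Lum, with log2 fold changes of 1.79 and 1.98. Lum passed the filter on low values through the senescent group. Kera, outside the genes tested, held reads in the senescent libraries alone and was at least 4.11-fold higher. It is listed through those reads, so its lack of overlap is not a separate result. Groups without overlap were seen for 57.4% of all genes tested. The nearest listed protein-coding genes outside that cluster lie far from it. Btg1, an antiproliferative gene 856800 bp before it, was higher (0.72, adjusted p = 0.00109), and Eea1 (0.07), Atp2b1 (−0.20) and Poc1b (−0.32) did not pass. On chromosome 1, Prelp (chr1:133910304-133921414, minus strand) and Fmod (chr1:134037254-134048277, plus strand) lie beside Optc, the gene of opticin, another protein of the family, which ends 2305 bp from Prelp. Optc was at 1.11 ± 0.549 and 1.45 ± 0.543 CPM (log2 fold change 0.29, adjusted p = 0.447). Btg2, 26893 bp after Fmod, was higher (0.65, adjusted p = 0.00307), Atp2b4 did not pass (0.05), and Chit1, which was below the filter, was at 0 CPM in each control library and 0.744 ± 0.357 CPM in senescent libraries.

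Aspn (chr13:49544443-49567565), Omd (chr13:49582462-49592822) and Ogn (chr13:49608046-49624501) lie on the plus strand within Cenpp, a centromere protein gene on the opposite strand. Cenpp fell from 2.59 ± 0.971 to 0.765 ± 0.0986 CPM (log2 fold change −1.25, adjusted p = 0.00413). The library kit kept strand, but whether counting used it is not given in the sources used here, so reads of these members and of Cenpp in shared stretches cannot be told apart. The genes on either side were Tes3-ps (−0.05, adjusted p = 0.836), Ecm2 (−0.12, adjusted p = 0.642), Nol8 (−0.38, adjusted p = 0.0316) and Iars (−0.75, adjusted p = 3.59e-04), of which the latter pair was lower. Podn (chr4:108014791-108096445) shares its strand with the overlapping Scp2, which did not pass (−0.04, adjusted p = 0.703), and among its neighbours Cpt2 (−0.06), Echdc2 (−0.24) and Zyg11b (−0.01) did not pass, while 0610037L13Rik was lower (−0.33, adjusted p = 0.0202). Around Bgn (chrX:73483602-73495933, plus strand), Haus7 (−0.59), Zfp275 (−0.42) and Dusp9 (−1.19) were lower, and Atp2b3 was below the filter.

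**Figure D4:**
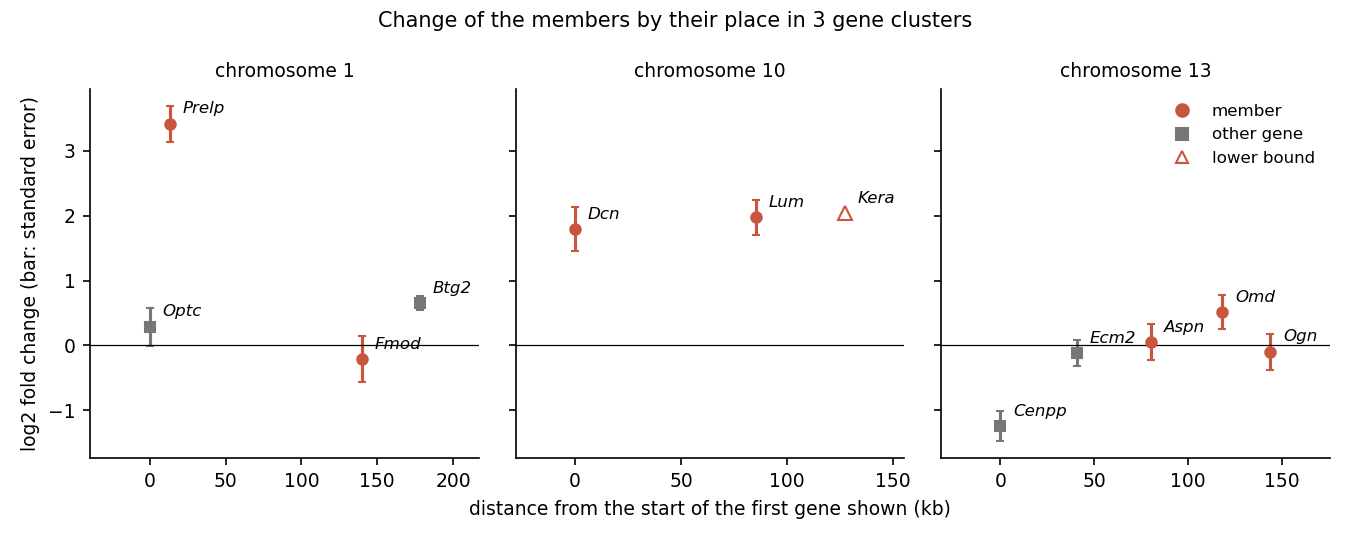
Log2 fold change of members (circles) and of named genes beside them (squares) with standard errors, against distance in kilobases from the first gene shown on chromosomes 1, 10 and 13; the triangle is the lower bound for Kera. Dcn and Lum lie near 2, Prelp is at 3.42 with Optc and Fmod near 0, and Aspn, Omd and Ogn lie between −0.10 and 0.51. The bound for Kera is drawn at 2.04, which follows from a floor of 3 reads per control library and is not an estimate of its change.

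Most of the collagens that these proteins coat were lower. Of 13 fibril and network collagens 8 were lower, against 24.3% of all genes tested, 0 were higher and 5 did not pass. Their median log2 fold change was −1.12 against −0.03 over all genes tested. With the replicate numbers as a block 11 passed, and 12 did without control replicate 2. Fewer passed in other alternatives, 5 with quantile normalization and 6 with library totals, without control replicate 3 or without senescent replicate 3. Col6a3, of the microfibrils around cells, was lower by a log2 fold change of −1.60 (adjusted p = 0.00148), Col1a1 by −2.29 (adjusted p = 0.00150) and Col2a1, the cartilage fibril collagen, by −2.69 (adjusted p = 0.00164). Col1a2, the other chain of type I collagen and named after its values were seen, was lower by −1.67. The sum of Col1a1 and Col1a2 was 28342 ± 10109 CPM in control and 6971 ± 1485 in senescent FAPs. Per 1000 CPM of these chains, Bgn was at 229 ± 96.9 and 858 ± 149 CPM, Dcn at 2.45 ± 1.39 and 29.5 ± 8.76, and Prelp at 4.07 ± 2.22 and 159 ± 61.5 CPM. In the same unit Fmod was at 4.66 ± 0.715 and 16.2 ± 4.72, and Ogn at 3.41 ± 1.20 and 12.6 ± 4.87. Bgn, Fmod and Ogn did not pass by themselves, so their ratios largely restate the fall of the collagen chains. These ratios were set up after the values were seen and carry no test.

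Those core proteins that carry sulfated chains need enzymes that build them. Of 28 chondroitin and dermatan sulfate enzymes 4 were higher, 5 lower and 19 did not pass. Over all genes tested the shares were 21.8% higher and 24.3% lower. The enzymes had a median of −0.12, and 4 in all passed without senescent replicate 3. Of the 4 higher, 2 reached 0.5 CPM in 3 libraries through the senescent group alone, as Lum did. Chsy1, a chondroitin synthase, was at 165 ± 10.5 and 92.2 ± 6.37 CPM (log2 fold change −0.84, adjusted p = 3.74e-04). Papss1 and Papss2, which make the sulfate donor, were lower by −0.46 (adjusted p = 0.00189) and −0.50 (adjusted p = 0.00324). Of 6 keratan sulfate enzymes tested 0 were higher and 1 was lower, Chst2, a sulfotransferase (−1.24, adjusted p = 0.00101), with a median of −0.09. This count was 3 without control replicate 2 and 2 without senescent replicate 1.

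Proteases that process or cleave members were split. Of 11 tested 5 were higher, 3 lower and 3 did not pass, against 21.8% higher and 24.3% lower among all genes tested. The median of the proteases was −0.17. The matrix metalloproteinases Mmp13 (0.280 ± 0.350 and 5.40 ± 0.899 CPM; log2 fold change 3.00, adjusted p = 3.77e-04), Mmp3 (3.54 ± 2.02 and 48.3 ± 13.7 CPM, log2 fold change 3.70, adjusted p = 5.62e-04) and Mmp9 (1.27, adjusted p = 0.00116) rose. Mmp13 and Mmp9 passed the filter on low values through the senescent group. Bmp1, which removes the propeptide of biglycan, was at 586 ± 76.1 and 518 ± 47.4 CPM and did not pass (−0.17, adjusted p = 0.265), and it was named after its values were seen.

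Of 18 ligands and receptors known to bind members 5 were higher, 4 lower and 9 did not pass, with a median of 0.09. Among all genes tested 21.8% were higher and 24.3% lower, so calls in this list were about as common as elsewhere. Of the 5 higher, 1 passed the filter on low values through the senescent group. Wisp1, a matricellular ligand reported to bind decorin and biglycan, was lower (390 ± 23.9 and 181 ± 12.6 CPM; log2 fold change −1.11, adjusted p = 1.84e-04). Egfr, a receptor bound by decorin, was higher (161 ± 17.2 and 255 ± 13.5 CPM, log2 fold change 0.67, adjusted p = 0.00143), and Tgfb3, a growth factor of the family that decorin and biglycan bind, was lower (−0.68, adjusted p = 0.00162). The receptors for soluble biglycan, Tlr4 (0.78, adjusted p = 0.00449) and Tlr2 (0.51, adjusted p = 0.0352), were higher and were named after their values were seen.

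Of 22 other proteoglycan core proteins tested 10 were higher, 3 lower and 9 did not pass, with a median of 0.46. The shares over all genes tested were 21.8% higher and 24.3% lower. In all, 8 of these core proteins passed without senescent replicate 2 and 7 without senescent replicate 3. Of the 10 higher, 3 passed the filter through the senescent group. Prg4, or lubricin, was at 44.2 ± 8.70 and 223 ± 57.2 CPM (log2 fold change 2.31, adjusted p = 3.06e-04), Agrn, the basement membrane proteoglycan agrin, rose by 0.84 (adjusted p = 7.62e-04), and Tgfbr3, or betaglycan, by 1.07 (adjusted p = 0.00141). Perlecan (Hspg2), a binding partner of PRELP and named after its values were seen, was lower (−0.85, adjusted p = 0.00253). Of 5 further genes of the leucine-rich repeat family, Chadl was higher (0.45, adjusted p = 0.0328), Podnl1 lower (−0.56, adjusted p = 0.0323) and 3 did not pass, with a median of −0.01. Chadl too passed the filter through the senescent group. Neither call was stable, and 0 of the 5 passed without control replicate 1, without control replicate 3, without senescent replicate 2 or without senescent replicate 3.

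**Figure D5:**
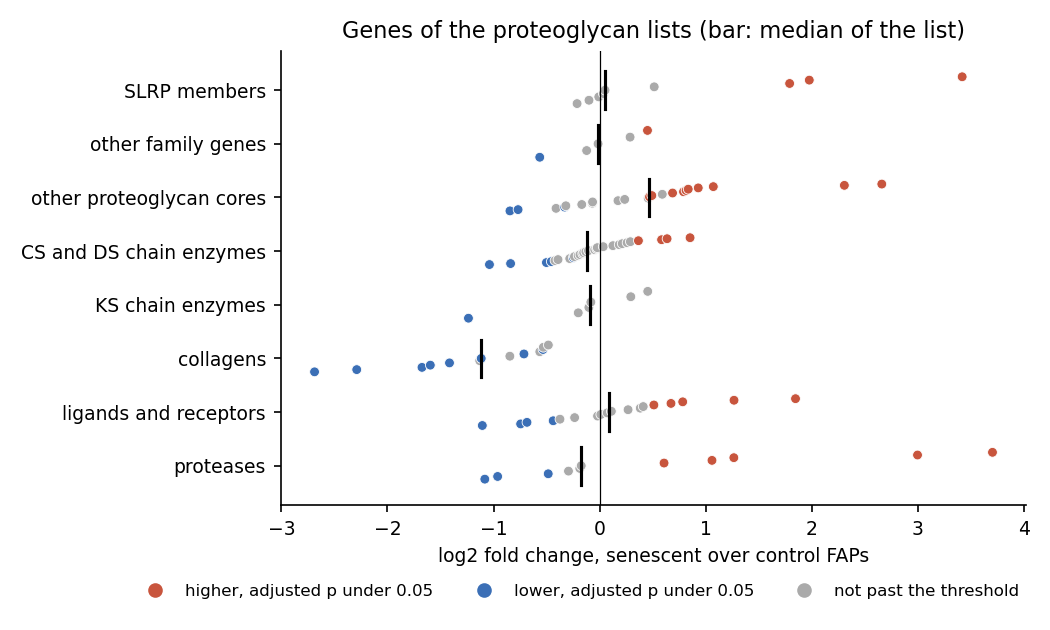
Log2 fold change of senescent over control FAPs for each tested gene (points) of the members and of 7 lists of related genes, with the median of each list as a bar; colors mark genes past an adjusted p of 0.05. The median of the collagens is −1.12, that of the other proteoglycan cores 0.46, and the members spread from −0.21 to 3.42.

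The genes whose pattern over the 6 libraries was most like that of the members called were found among 9101 genes with at least 10 CPM on average, by root-mean-square distance of centered log2 values. For Prelp these were Il33, an alarmin cytokine (distance 0.0874; log2 fold change 3.40), and Usp18, an interferon-induced protease (0.132; 3.54). For Dcn these were Dapk1, a death-associated kinase (0.240; 1.85), and Dpt, the decorin-binding matrix protein dermatopontin (0.255; 1.58), and for Lum these were Dapk1 (0.119) and Fas, a death receptor (0.135; 1.92). Genes with a similar difference between the groups lie near each other by this distance. The log2 fold change of Lum was 2.66 with a pseudocount of 0.1 and 1.54 with 1, so its nearest genes may depend on that setting, which was not varied here.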

How the data were processed

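mRNA-seq libraries of 3 control and 3 senescent FAP cultures were prepared with a stranded kit and counted per gene by the authors, who deposited 1 normalized signal value for each gene in each library (CPM, divided by edgeR's effective library size). The submitters' processing notes name edgeR 3.10, R 3.6.0 and mm10. The aligner, counter, annotation and low-count filter are not given in the sources used here. Whole reads were recovered for 100% of values in each library (tolerance 0.01 reads), and the deposited scaling equalled edgeR's TMM factors. Of the symbols, 94.5% matched GENCODE M21, which gave positions and the longest principal transcript, and 22 were written as dates.

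Tested genes had 0.5 CPM or more in 3 or more libraries (14777 of 16895). They were fitted with limma 3.58.1 (R 4.3.3, two-sided, variance trend) on log2(CPM + 0.5), adjusted by Benjamini-Hochberg over all genes tested, and alternatives on whole reads used DESeq2 1.42.0 and edgeR 4.0.16. Ratios used exact permutation tests in scipy 1.17.1. Scripts were tested on simulated data. Other alternatives changed the pseudocount, filter and scaling, left out each library, or added a replicate block. Deviations from group means correlated at 0.537, 0.308 and 0.207 between same-numbered samples, and at −0.357 to 0.153 between samples of different number. The numbers were thus taken as pairing the samples from these data, not from the labels, though 0.153 is close to 0.207. Among the tests, only the replicate block used this pairing. The main fit and the exact permutation tests treated the samples as independent groups. Nothing in the labels says that replicates were separate animals, so p-values measure only the spread between these samples. No 2 libraries of a group agreed within sampling noise. The text names all members, per list the 3 called genes of smallest p, the highest marker of other cell types, the 2 nearest listed genes on each side and the 2 genes most like each called member. Other genes are marked as named after their values were seen. The members and lists were chosen with earlier results of these data known.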

Additional observations from a re-analysis of the deposited data

Results flagged for a closer look

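Kera, which was below the filter on low values and so outside the 14777 genes tested, had reads in the senescent libraries alone. The lowest senescent library held 12 reads and the highest 13, against 0 reads in each of the 3 control libraries, where a count of 0 allows up to 3 reads. The place of Kera in the table thus rests on the senescent libraries. With all 16895 listed genes tested, its adjusted p was 0.0059 with limma and 0.0036 with edgeR's quasi-likelihood test.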

How the results depend on the processing

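Prelp, Dcn and Lum were higher at an adjusted p under 0.05 in each of 18 alternatives, with log2 fold changes of 3.101 to 3.66, 1.40 to 2.19 and 1.54 to 2.69, and no member was lower in any of them. Members higher numbered 4 with no filter and with the quasi-likelihood test on all listed genes, through Kera, with quantile normalization, through Bgn, and without control replicate 3, through Omd. The replicate block left each of these calls in place (Prelp 3.42, adjusted p = 2.49e-05) and changed no call of another member (Fmod adjusted p = 0.0704), and it moved the count of calls from 2 to 1 among the other family genes, 1 to 2 among the keratan sulfate enzymes, 9 to 12 among the chondroitin and dermatan sulfate enzymes, 8 to 11 among the collagens and 13 to 14 among the other proteoglycan cores. The log2 fold change of Bgn turned to 0.0304 with median-of-ratios size factors, 0.20 with library totals, 0.57 with quantile normalization, 0.0185 with edgeR's quasi-likelihood test and 0.0308 with DESeq2, and ranged from −0.0423 to 0.0237 on leaving out 1 library. Leaving out 1 library gave −0.19 to 0.31 for Aspn, −0.51 to 0.12 for Fmod, 0.37 to 0.79 for Omd, −0.38 to 0.20 for Ogn and −0.29 to 0.24 for Podn. Ogn was at 0.11 with library totals and 0.0012 with quantile normalization, and Podn at −0.0255 with the quasi-likelihood test on all listed genes, an alternative added after seeing the data. Genes higher numbered 4993 and lower 1930 with library totals, and 2130 to 3406 were higher on leaving out 1 library, with 2130 without senescent replicate 2. The quasi-likelihood test called 3262 higher and 3307 lower, and on all listed genes it put 1758 above the study's threshold. Calls among the other family genes numbered 1 with a filter at 2 CPM, library totals, quantile normalization or DESeq2 and 0 to 1 on leaving out 1 library. Calls among the chondroitin and dermatan sulfate enzymes numbered 5 with quantile normalization and 4 to 12 on leaving out 1 library. Among the keratan sulfate enzymes they numbered 2 with median-of-ratios size factors, edgeR or DESeq2, 3 with library totals and 1 to 3 on leaving out 1 library. Among the collagens they numbered 5 with quantile normalization and 6 to 12 on leaving out 1 library, and among the other proteoglycan cores 7 to 12 on leaving out 1 library. The difference of the log2 ratio of Lum to Dcn was 1.17 without a pseudocount and −0.24 with a pseudocount of 1. Per kilobase of transcript, a unit also added after seeing the data, the share of class I differed by −8.26 and of class II by 8.56 percentage points. The cause of these shifts was not tested.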

Other observations

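The 3 members that were higher in senescent FAPs shared an order within the control group. Dcn, Lum and Prelp were each lowest in control replicate 1 and highest in control replicate 3, and their difference between same-numbered samples was smallest for replicate 3. On the log2(CPM + 0.5) scale these were 2.42, 1.80 and 1.15 for Dcn in replicates 1, 2 and 3, 2.42, 2.04 and 1.47 for Lum, and 3.73, 3.30 and 3.22 for Prelp. Fmod had its highest control value in replicate 1, and was lower in the senescent sample of each same-numbered pair, by −0.29, −0.32 and −0.02. Omd was higher in the senescent sample of each pair, by 0.91, 0.50 and 0.13. These patterns were noticed after the values were seen, rest on 3 libraries a group and were not tested.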
